A study of Mus musculus with 8 samples.

Results

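The 9 cyclic nucleotide phosphodiesterase (PDE) genes described here, *Pde1a*, *Pde1b*, *Pde2a*, *Pde4a*, *Pde4b*, *Pde4d*, *Pde7b*, *Pde8b* and *Pde10a*, were taken by name from a gene table of 45706 rows, and all 9 were among the 14962 genes with enough counts to be tested. They were set beside 15 other PDE genes of the same table, and for *Pde4b* and *Pde4d* the 33 annotated transcripts were examined as well. Bulk RNA-seq had been performed on hippocampal neurons of embryonic day 18 *Wt* C57/Bl6 mice, to which MCH peptide (1 µM) or control vehicle (H2O) was given for 4 h, with 4 wells per treatment. All 8 wells had the same genotype and shared a treatment of the cultures against dividing glia. The wells came from 2 independent cultures, and no source ties a replicate number to its culture. Total estimated counts ranged from 26083936 to 31844861 per well. Nothing states that wells of 1 treatment within a culture differ in more than the dish, so *P* values here measure the spread between wells, which may be technical.

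PDEs are the enzymes that break down the second messengers cAMP and cGMP, so together with the cyclases that make these messengers they set how long and where a cyclic nucleotide signal lasts in a neuron. MCH (melanin-concentrating hormone) signals in rodents through MCHR1, a receptor that couples to Gi proteins, which lower cAMP, and also to Gq proteins. Some PDE genes, in particular short forms of the PDE4 family, are known as targets of cAMP and CREB themselves, which makes their transcripts one place where a change in cAMP could be read.

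The replicate numbers split the wells into replicates 1 and 2 on one side and replicates 3 and 4 on the other, in both treatments, along the first principal component of the deviations from the treatment means (59.8% of their variance). The 9 neuronal markers summed to 7150.5 to 7291 CPM (counts scaled to a common library size) in replicates 1 and 2 and to 6383 to 6619 CPM in replicates 3 and 4. The 7 astrocyte markers summed to 344 to 466 CPM and 1512 to 1719 CPM, respectively, and the 9 fibroblast and vessel markers to 21.7 to 27.7 CPM and 59.4 to 65.6 CPM. The 8 oligodendrocyte lineage markers summed to 57.3 to 67.9 CPM and 126 to 147 CPM, with *Sox10* and *Mog* at 0 counts in all wells, and the 7 microglial markers to 4.75 to 6.68 CPM and 7.68 to 10.2 CPM. The 6 markers of hippocampal excitatory neurons (562 to 848 CPM over all wells) were present, as were most of the 8 markers of striatal projection neurons (90.1 to 115 CPM). Of these, *Tac1* had 1169 to 1620 counts per well, *Penk* 594 to 721, *Drd1* 249 to 310, *Rgs9* 197 to 302 and *Ppp1r1b* 148 to 279, whereas *Drd2* had 14 to 26 and *Adora2a* 2 to 20. No marker of these lists was called between treatments in the test used below. With the replicate block, *Gad1* and *Penk* were called lower (edgeR, adjusted *P* = 0.0349 and 0.0289) and *Neurod2* higher (adjusted *P* = 0.0259) with MCH. That fit called 3.98% of all tested genes in either direction and 2.25% lower. With a block for these sides, *Gad1*, *Penk* and *Drd1* were called lower (edgeR, adjusted *P* = 0.0267, 0.0174 and 0.0441), where 2.61% of all tested genes were. *Mchr1* was measured at 9.91 ± 0.82 CPM (SD, n = 4) with vehicle and 9.70 ± 0.297 CPM (SD, n = 4) with MCH.

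Levels were first compared between genes in TPM (relative transcript abundance), which takes transcript length into account. *Pde2a*, a cAMP- and cGMP-hydrolyzing enzyme that cGMP stimulates, had the highest level at 188 ± 6.97 TPM (SD over 8 wells). *Pde1a*, which encodes a PDE that calcium and calmodulin activate, followed at 152 ± 4.80 TPM. Together these made up 61.0 to 64.1% of the summed TPM of the 9 genes in every well.

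*Pde10a*, best known from striatal projection neurons and able to hydrolyze both messengers, and *Pde4a*, a cAMP-specific enzyme, came next at 44.8 ± 5.22 and 44.8 ± 1.94 TPM. Their wells overlapped, with *Pde10a* the higher in 5 of 8 wells. *Pde1b*, the other calmodulin-activated enzyme of the group, stood at 33.8 ± 1.19 TPM. *Pde4b* (29.1 ± 2.06 TPM) and *Pde4d* (28.2 ± 1.91 TPM), both cAMP-specific, overlapped again, with *Pde4b* the higher in 5 of 8 wells. *Pde8b*, a cAMP-specific PDE that the inhibitor IBMX hardly blocks, was measured at 19.2 ± 3.75 TPM. *Pde7b*, also cAMP-specific, was measured at 0.720 ± 0.353 TPM, with 20 to 75 counts per well. All other neighbors in this order were separated in all 8 wells. Counts per kilobase of the longest annotated transcript gave the same order except that *Pde4a* and *Pde10a* changed places.

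**Figure D1:**
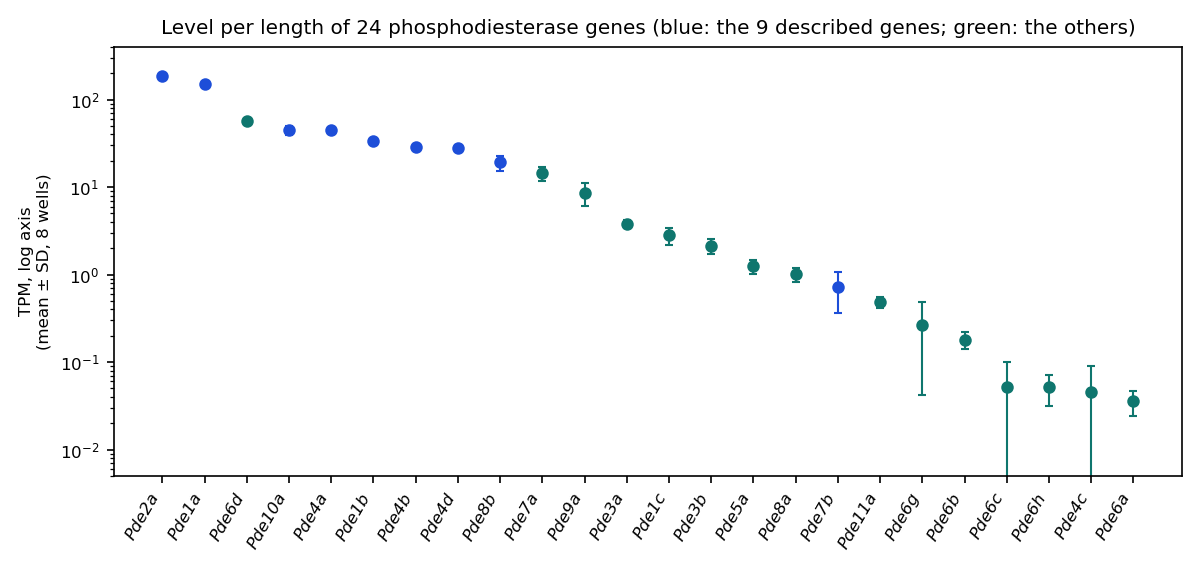
Level of 24 phosphodiesterase genes in TPM (log axis), mean ± SD over 8 wells, with the 9 described genes in blue and the 15 others in green. Lower bars that reach 0 are cut off by the axis. *Pde2a* and *Pde1a* stand highest, and *Pde7b* is the only one of the 9 below 1 TPM.

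The 9 genes held 84.4 to 86.7% of the summed TPM of the 24 PDE genes, which was 610 to 652 TPM per well. Of the 15 others, *Pde6d* had the highest level (56.3 TPM), although it is known mainly as a carrier of lipid-modified proteins and not as a catalytic subunit. When genes were grouped by known substrate, *Pde1a*, *Pde1b*, *Pde2a* and *Pde10a*, whose enzymes act on cAMP and cGMP, summed to 416 ± 11.7 TPM (SD, n = 4) with vehicle and 420 ± 6.09 TPM (SD, n = 4) with MCH. The cAMP-specific *Pde4a*, *Pde4b*, *Pde4d*, *Pde7b* and *Pde8b* summed to 121 ± 8.98 TPM and 123 ± 6.18 TPM (SD, n = 4 each). In bulk RNA, fewer cells that express a gene and less RNA per cell cannot be told apart.

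The next comparison asked whether 4 h of MCH changed the level of these transcripts. None of the 9 genes was DE (edgeR quasi-likelihood test, Benjamini–Hochberg adjusted *P* under 0.05), where 0.234% of all tested genes were called. Adjusted *P* values ranged from 0.766 to 1.00, and none of the 9 had an unadjusted *P* under 0.05 (8.5% of all tested genes did). DESeq2 and limma voom called 0 of the 9 as well (1.19% and 0.207% of all genes), with 0 unadjusted *P* values under 0.05 each. The treatments overlapped for every one of the 9 genes, whereas they did not overlap for 6.03% of all tested genes. Differences were small in size. The median log2 fold change of the 9 was 0.03, beside −0.0027 for all tested genes, and the median size without sign was 0.05 beside 0.07.

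The intervals limit how large a difference could have gone unseen. For 8 of the 9 genes, the 95% confidence interval of the fold change lay within 1.3-fold either way, which held for 62.7% of all tested genes. Over these 8 genes, the lowest bound was a change of −19.2% (*Pde10a*) and the highest one of 14.5% (*Pde8b*). For *Pde7b* the interval reached from −1.10 to 1.21 on the log2 scale in this fit, whose error includes the difference between replicates 1 and 2 and replicates 3 and 4. Blocked by replicate number its log2 fold change was −0.014 ± 0.21 (SE, 95% interval −0.47 to 0.44).

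**Figure D2:**
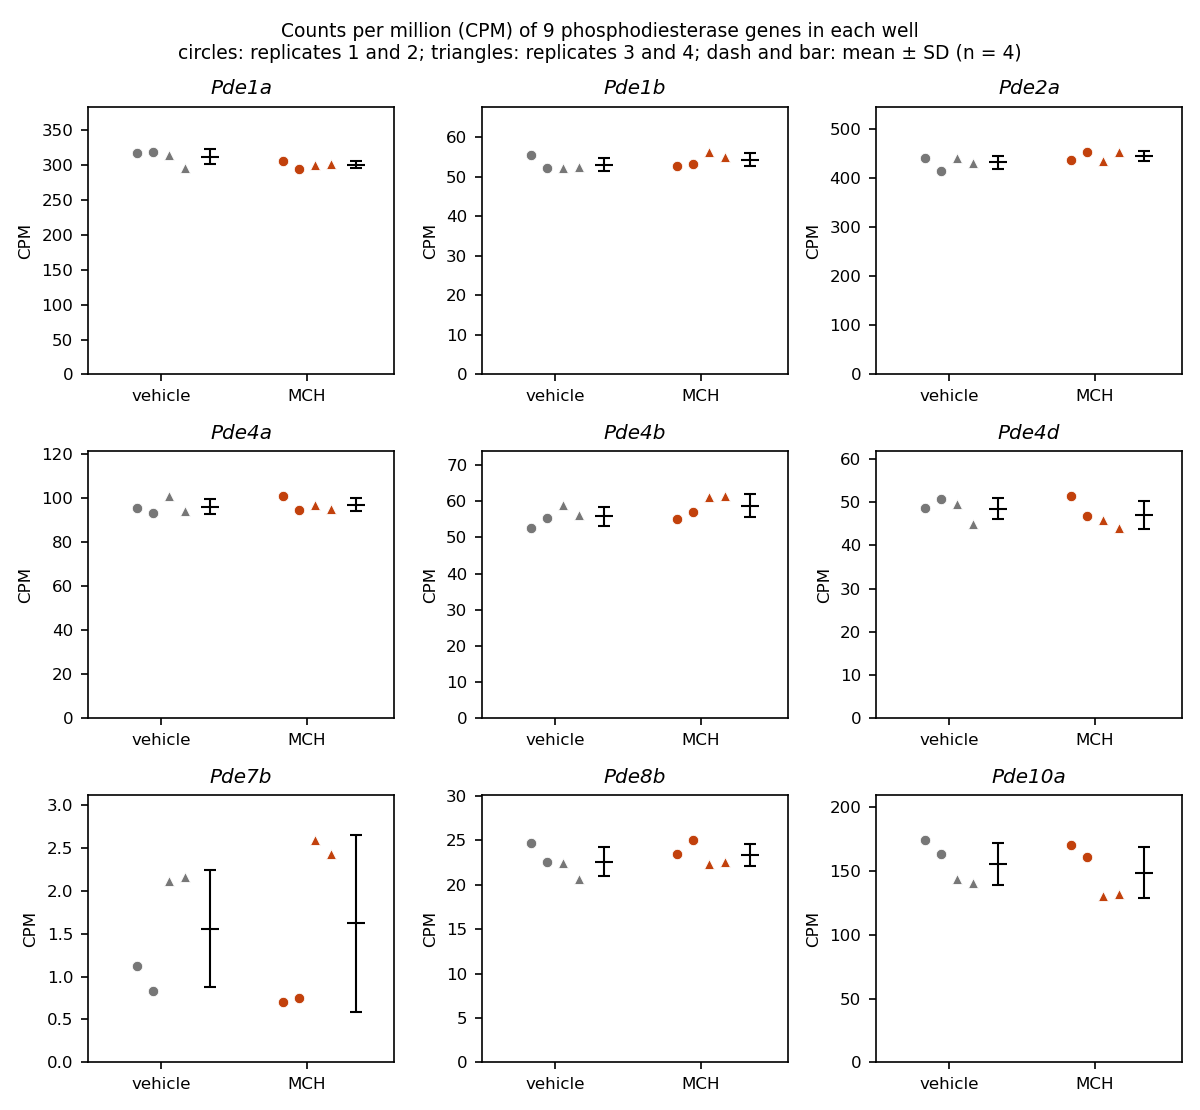
CPM of the 9 genes in each well, by treatment. Circles are replicates 1 and 2, triangles replicates 3 and 4, and the dash with bar is mean ± SD (n = 4). The treatments overlap in all 9 panels, and *Pde7b* and *Pde10a* separate by replicate number within each treatment.

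Among the genes for enzymes that act on both messengers, *Pde1a* (chr2:79834453-80129458, minus strand, GRCm38) had the smallest *P* value of the 9. Its vehicle-treated wells, replicates 1 to 4, held 318, 319.7, 314 and 297 CPM. Its MCH-treated wells held 307, 295, 300.4 and 301 CPM. All MCH-treated wells lay within or below the range of vehicle, and replicate 4 with vehicle fell among them. The log2 fold change was −0.05 ± 0.04 (SE, 95% interval −0.13 to 0.03, adjusted *P* = 0.766), and an exact permutation test over the 70 assignments of treatments to wells, whose smallest possible *P* value is 0.0286, gave *P* = 0.114.

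Within replicates 1 and 2 log2 CPM differed by −0.08, and in the other replicates by −0.02. The 5 genes whose log2 CPM over the 8 wells was most like that of *Pde1a* among 13402 genes were *Vps52* (Pearson r = 0.973), *A130014A01Rik* (0.963), *Rbm4* (0.955), *Slc29a2* (0.937) and *Tbp* (0.935). The 8 points share treatments and sides, and none of the 5 was DE.

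*Pde2a* held 441, 414, 441 and 430.4 CPM in the vehicle-treated wells and 437, 453, 434 and 454 CPM in the MCH-treated wells. The highest MCH-treated wells were replicates 2 and 4, and the lowest well of all was replicate 2 with vehicle. This gave a log2 fold change of 0.04 ± 0.04 (SE, 95% interval −0.04 to 0.12, adjusted *P* = 0.840). The deposited row carries an identifier that GENCODE vM21 gives to *Gm45837* (chr7:101410886-101512819), a locus that overlaps *Pde2a* (chr7:101421691-101512827) on the same strand. Its counts equal the sum of 3 transcripts, of which *Gm45837-201* held 81.3% and *Pde2a-201* 18.7% of the TPM. The row is therefore the joint level of these overlapping transcripts.

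Taken singly, their estimates lay on opposite sides of 0. *Gm45837-201* held 332, 335, 349 and 361 CPM with vehicle and 367, 379, 358 and 378 CPM with MCH. Only replicate 3 with MCH lay inside the range of vehicle, and the log2 fold change was 0.11 ± 0.04 (SE, unadjusted *P* = 0.0213, adjusted *P* = 1.00 in edgeR, and 0.360 in DESeq2). *Pde2a-201* held 110, 79.3, 93.5 and 73.4 CPM with vehicle and 70.3, 74.1, 78.4 and 78.7 CPM with MCH, a log2 fold change of −0.24 ± 0.12 (SE, unadjusted *P* = 0.0888, edgeR adjusted *P* = 1.00). Neither was called.

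*Pde1b* (chr15:103503034-103530052) held 55.5, 52.2, 52.3 and 52.5 CPM with vehicle and 52.8, 53.2, 56.4 and 54.9 CPM with MCH. Replicate 1 with vehicle lay above the other 3 vehicle-treated wells and inside the range of MCH. The treatments differed by 0.03 ± 0.04 on the log2 scale (SE, 95% interval −0.06 to 0.12, adjusted *P* = 0.925).

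*Pde10a* (chr17:8525372-8986648) was the gene with the widest spread among those with many counts. It held 174, 163, 144 and 140.2 CPM with vehicle and 169.9, 161, 131 and 132 CPM with MCH. In both treatments, replicates 1 and 2 lay above replicates 3 and 4. The MCH-treated well was the lower in 4 of 4 replicate numbers, and the log2 fold change was −0.07 ± 0.11 (SE, 95% interval −0.31 to 0.17, adjusted *P* = 0.963). Blocked by replicate number, its unadjusted *P* value was 0.0393, and blocked by side 0.0415, but neither passed adjustment (edgeR, adjusted *P* = 0.251 and 0.248).

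Of the cAMP-specific genes, *Pde4a* (chr9:21165714-21213248) held 95.5, 93.4, 101 and 94.0 CPM with vehicle and 101, 94.7, 97.0 and 94.8 CPM with MCH. The ranges of both treatments were nearly the same. Its log2 fold change was 0.01 ± 0.04 (SE, 95% interval −0.07 to 0.10, adjusted *P* = 0.996).

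*Pde4b* (chr4:102087543-102607259) held 52.7, 55.4, 59.0 and 56.2 CPM with vehicle and 55.1, 57.1, 61.3 and 61.5 CPM with MCH. The MCH-treated well was the higher in 4 of 4 replicate numbers, yet 2 MCH-treated wells lay inside the range of vehicle. The log2 fold change was 0.07 ± 0.05 (SE, 95% interval −0.04 to 0.19, adjusted *P* = 0.773, exact permutation *P* = 0.200), with 0.06 in replicates 1 and 2 and 0.09 in replicates 3 and 4 taken alone.

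*Pde4d* (chr13:108449948-109953461) held 48.8, 50.7, 49.7 and 44.95 CPM with vehicle and 51.5, 46.7, 45.9 and 44.02 CPM with MCH. Replicate 1 with MCH was the highest and replicate 4 with MCH the lowest of all wells. The difference was −0.04 ± 0.06 on the log2 scale (SE, 95% interval −0.17 to 0.09, adjusted *P* = 0.939).

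*Pde8b* (chr13:95024454-95250336, minus strand) held 24.7, 22.6, 22.5 and 20.7 CPM with vehicle and 23.5, 25.1, 22.4 and 22.6 CPM with MCH. The wells of both treatments interleaved. A log2 fold change of 0.05 ± 0.07 (SE, 95% interval −0.10 to 0.20, adjusted *P* = 0.939) resulted.

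*Pde7b* (chr10:20398004-20725078, minus strand) held 1.12, 0.834, 2.12 and 2.15 CPM with vehicle and 0.703, 0.751, 2.59 and 2.42 CPM with MCH. In both treatments replicates 3 and 4 lay above replicates 1 and 2. The log2 fold change was 0.05 ± 0.51 (SE, adjusted *P* = 1.00), and its sign changed in 9 of 16 alternative fits, none of which called the gene.

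Whether the treatment difference itself differed between replicates 1 and 2 and replicates 3 and 4 was tested as an interaction in edgeR. It was called for 0 of the 9 genes (0.0267% of all tested genes were called), with 0 unadjusted *P* values under 0.05 and adjusted *P* values from 0.761 to 0.986. The largest term in size was that of *Pde7b*, 0.66 ± 0.40 (SE).

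The 9 genes were also described by side. The sides were read from these same counts, so the values carry no test. In size, the difference of mean log2 CPM between the sides was larger than the log2 fold change of the treatment for 5 of the 9 genes and smaller for 4. Of the 9 genes, *Pde10a* and *Pde7b* had sides that did not overlap, where 29.6% of all tested genes had. *Pde10a* lay at 161 to 174 CPM in replicates 1 and 2 and at 131 to 144 CPM in replicates 3 and 4, a mean difference of −0.29 on the log2 scale. *Pde7b* lay at 0.703 to 1.12 CPM and 2.12 to 2.59 CPM, a difference of 1.39. For the other 7 genes the difference of the sides ran from −0.12 (*Pde8b*) to 0.11 (*Pde4b*). The astrocyte, oligodendrocyte lineage, microglial, and fibroblast and vessel markers were higher in replicates 3 and 4 and the neuronal markers lower, as given above, and their part in the values of *Pde10a* and *Pde7b* was not tested.

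**Figure D3:**
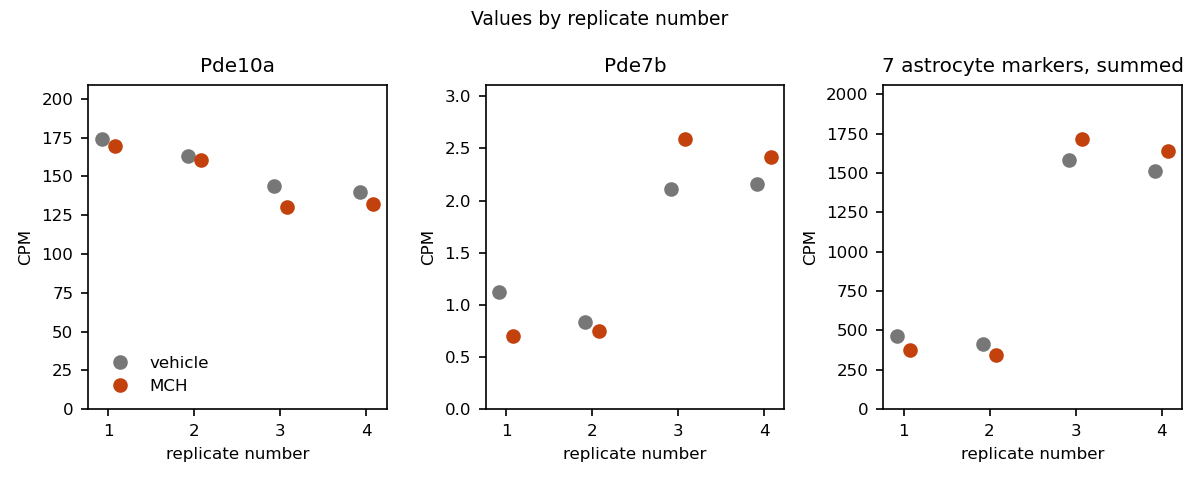
CPM of *Pde10a*, of *Pde7b* and of 7 astrocyte markers summed, by replicate number, with vehicle in gray and MCH in orange. Replicates 3 and 4 lie lower for *Pde10a* and higher for *Pde7b* and for the astrocyte markers (1512 to 1719 CPM against 344 to 466 CPM) in both treatments.

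The forms of *Pde4b* and *Pde4d* were compared next. PDE4 genes use several start sites. Long forms carry both regulatory domains, UCR1 and UCR2, that precede the catalytic domain, and short forms lack UCR1. Here a complete coding transcript of at least 600 codons was taken as long and one of 400 to under 600 codons as short, and all other transcripts were set apart. *Pde4b* had 13 annotated transcripts (3 long, 4 short), of which 5 had a mean of at least 10 reads. *Pde4d* had 20 (6 long, 3 short), of which 6 did.

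The coding sequences of the 8 long and short forms among these 11 transcripts are shown here around the point at which each becomes the same as another form of its gene, because this is where the forms differ. Bases in capitals are shared up to the stop codon with the compared form, and bases in lower case are the last ones of the stretch that is its own, all read 5′ to 3′ from the GENCODE vM21 transcripts. *Pde4b-207* and *Pde4b-208* were compared with each other, as were *Pde4d-205* and *Pde4d-208*, and the short forms with *Pde4b-207* or *Pde4d-205*.
Pde4b-207 (long, 721 codons): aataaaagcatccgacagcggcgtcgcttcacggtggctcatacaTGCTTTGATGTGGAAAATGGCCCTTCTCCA
Pde4b-208 (long, 736 codons): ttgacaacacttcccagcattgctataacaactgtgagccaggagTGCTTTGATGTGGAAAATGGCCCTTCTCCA
Pde4b-203 (short, 564 codons): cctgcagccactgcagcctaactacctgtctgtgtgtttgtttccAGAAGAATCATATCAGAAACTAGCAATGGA
Pde4b-202 (short, 503 codons): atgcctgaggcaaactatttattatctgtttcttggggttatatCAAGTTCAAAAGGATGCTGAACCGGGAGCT
Pde4d-205 (long, 703 codons): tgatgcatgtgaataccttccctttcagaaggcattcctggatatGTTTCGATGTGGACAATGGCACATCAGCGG
Pde4d-208 (long, 803 codons): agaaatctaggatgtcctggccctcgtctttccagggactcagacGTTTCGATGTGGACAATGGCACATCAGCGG
Pde4d-207 (short, 584 codons): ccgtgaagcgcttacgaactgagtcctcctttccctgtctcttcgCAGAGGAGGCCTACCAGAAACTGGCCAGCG
Pde4d-203 (short, 517 codons): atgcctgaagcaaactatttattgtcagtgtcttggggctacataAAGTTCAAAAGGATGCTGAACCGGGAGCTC

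The long forms shown were compared only with each other, so within each gene they enter their common sequence at the same point by construction. The own stretch was 234 coding bases in *Pde4b-207*, 279 in *Pde4b-208*, 139 in *Pde4d-205* and 439 in *Pde4d-208*. The shortest forms shown, *Pde4b-202* and *Pde4d-203*, have own stretches of 44 and 45 bases, given whole from the start codon, and 38 of the first 44 bases are the same in both genes. The common part made up 81.8 to 97.1% of the coding bases of a form, so reads within it are divided among forms by the authors' estimate and not by a base that tells them apart.

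By the deposited estimate, the transcript with the largest share was a long form for *Pde4b* and a short form for *Pde4d*. In each gene this was also the transcript whose annotated 3′ end reaches furthest. *Pde4b-207* held 63.3% of the TPM of its gene on average over the 8 wells, *Pde4b-202* 20.1% and *Pde4b-208* 8.15%. *Pde4d-207* held 48.0%, *Pde4d-205* 30.5% and *Pde4d-203* 10.6%. In the annotation, *Pde4b-207* and *Pde4d-207* reach 1398 and 1987 bases past the last base of any other transcript of their genes. Reads from there are therefore assigned to these forms alone, even if mRNA of another form also reaches there. *Pde4d-205*, for example, is annotated with 2163 bases, of which 2109 are coding. Whether other forms reach further in these cells was not tested. The shares of long and short forms thus depend on the annotated ends.

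Summed over forms, the long *Pde4b* transcripts held 44.2, 47.7, 47.5 and 47.2 CPM with vehicle and 45.1, 47.9, 50.6 and 53.0 CPM with MCH. The short ones held 7.35, 6.85, 10.2 and 7.80 CPM with vehicle and 9.16, 8.63, 9.85 and 7.58 CPM with MCH. The treatments overlapped for both. The log2 fold change was 0.08 ± 0.05 (SE, adjusted *P* = 0.793) for long and 0.13 ± 0.14 (SE, adjusted *P* = 0.904) for short forms. The short sum was mostly *Pde4b-202*, with a mean of 212.7 reads per well, beside 13.0 for *Pde4b-203*.

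The long *Pde4d* transcripts held 10.8, 12.7, 12.3 and 10.9 CPM with vehicle and 11.4, 10.02, 10.9 and 8.595 CPM with MCH. The short ones held 35.9, 34.6, 34.1 and 33.1 CPM with vehicle and 36.9, 34.3, 32.9 and 33.6 CPM with MCH. Short forms were at nearly the same level in both treatments, and the lowest 2 wells for long forms were MCH-treated. The log2 fold change was −0.19 ± 0.10 (SE, 95% interval −0.42 to 0.04, adjusted *P* = 0.685) for long and 0.0015 ± 0.05 (SE, 95% interval −0.11 to 0.11, adjusted *P* = 1.00) for short forms. For the long forms, the replicate block gave an unadjusted *P* of 0.0348 that did not pass adjustment (edgeR, adjusted *P* = 0.234). The main long form, *Pde4d-205*, held 9.69 ± 0.751 CPM with vehicle and 9.69 ± 0.987 CPM with MCH (SD). The low-count long form *Pde4d-208* held 1.98 ± 0.957 and 0.509 ± 0.588 CPM.

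None of the long and short forms was called in edgeR, where 0.234% of all tested rows were, and none had an unadjusted *P* under 0.05. DESeq2 called none of them either. None of the 11 transcripts with at least 10 reads was called singly, with 0 unadjusted *P* values under 0.05, in a test that called 0.0% of 33527 transcripts (4.4% had an unadjusted *P* under 0.05). DESeq2 called 219 transcripts (0.468%), but none of these 11. *Pde4b-202*, the shortest of the *Pde4b* forms whose sequences are shown, held 7.39, 6.42, 6.47 and 7.31 CPM with vehicle and 9.03, 8.56, 8.90 and 6.72 CPM with MCH. Replicate 4 with MCH lay among the vehicle-treated wells and the other 3 above them. Its log2 fold change was 0.27 ± 0.13 (SE, 95% interval −0.03 to 0.57, adjusted *P* = 1.00, exact permutation *P* = 0.0857).

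*Pde4b-206*, a transcript of 212 codons, was the only one of the 11 whose treatments did not overlap, where 3.87% of all tested transcripts had no overlap. It held 0.856, 0.834, 0.849 and 1.16 CPM with vehicle and 0.608, 0.601, 0.695 and 0.672 CPM with MCH, from 15.5 to 30.5 reads per well. Its exact permutation *P* value was 0.0286, the smallest possible, with no adjustment over the 11 transcripts, and edgeR gave an adjusted *P* of 1.00. *Pde4d-208* had a log2 fold change of −1.95 ± 1.33 (SE, adjusted *P* = 1.00) from 26.5 to 91.4 reads with vehicle and 0 to 31.9 reads with MCH. The remaining transcripts, *Pde4b-207*, *Pde4b-208*, *Pde4b-203*, *Pde4d-207*, *Pde4d-205*, *Pde4d-203*, *Pde4d-218* and *Pde4d-210*, had log2 fold changes from −0.67 to 0.25.

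Shares of short forms were taken from reads without correction for transcript length, so they are not the TPM shares given above. Like those, they depend on the annotated 3′ ends of the forms. *Pde4d-207* has 4207 bases and *Pde4d-205* 2163, and *Pde4b-207* has 4304 and *Pde4b-202* 2465. The share of short forms among reads on short and long forms was 14.3, 12.6, 17.7 and 14.2% for *Pde4b* with vehicle and 16.9, 15.3, 16.3 and 12.5% with MCH. For *Pde4d* it was 76.9, 73.2, 73.5 and 75.3% with vehicle and 76.3, 77.4, 75.1 and 79.6% with MCH. Shares of the treatments overlapped in both genes. The mean share moved from 14.7 ± 2.18% to 15.2 ± 1.93% (SD, n = 4 each, two-sided exact permutation *P* = 0.714) for *Pde4b*, with a difference of 2.65 percentage points in replicates 1 and 2 and of −1.54 in replicates 3 and 4. For *Pde4d* it moved from 74.7 ± 1.74% to 77.1 ± 1.91% (SD, n = 4 each, two-sided exact permutation *P* = 0.143), by 1.81 and 3.04 percentage points within the sides.

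**Figure D4:**
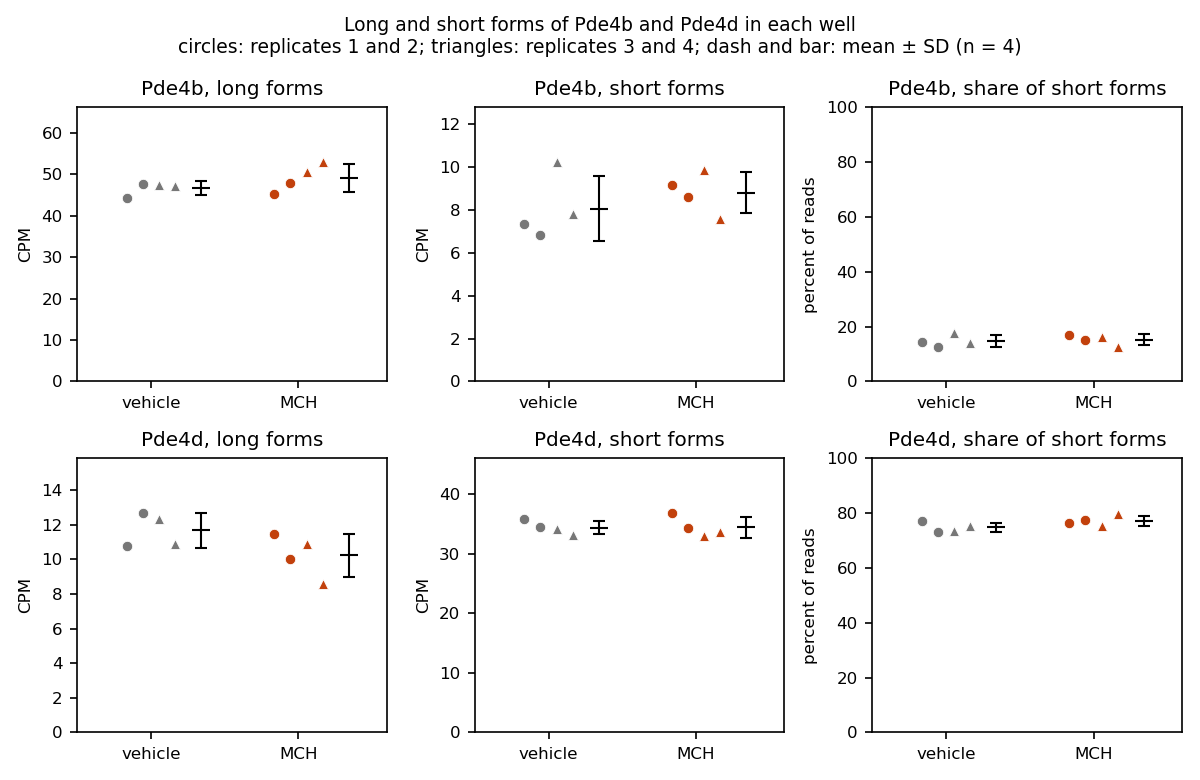
CPM of long and short forms of *Pde4b* and *Pde4d* and the share of short forms in percent of reads, by treatment. Circles are replicates 1 and 2, triangles replicates 3 and 4, and the dash with bar is mean ± SD (n = 4). The treatments overlap in all 6 panels, and the share of short forms among reads lies below 18% for *Pde4b* and above 73% for *Pde4d*. Shares are not corrected for transcript length and depend on the annotated 3′ ends of the forms.

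Other members of the cyclic nucleotide pathway were set beside these genes. Of the 15 other PDE genes, 9 were tested and none was called. *Pde6d* had a log2 fold change of −0.09 ± 0.05 (SE, adjusted *P* = 0.720) and *Pde11a* of 0.38 ± 0.27 (SE, adjusted *P* = 0.790). *Pde4c*, *Pde6a*, *Pde6b*, *Pde6c*, *Pde6g* and *Pde6h*, most of them known from photoreceptors, had too few counts to be tested. The median log2 fold change of the 9 tested others was 0.03.

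Of 10 adenylyl cyclases, which make cAMP, 8 were tested and none was called, with 1 unadjusted *P* under 0.05. This was *Adcy9* (log2 fold change 0.14 ± 0.06 SE, adjusted *P* = 0.559), and *Adcy8* had −0.15 ± 0.14 (SE, adjusted *P* = 0.857). Of the 8 genes for makers and effectors of cGMP, none was called and 1 had an unadjusted *P* under 0.05, *Prkg1*, a cGMP-dependent kinase (0.17 ± 0.07 SE, adjusted *P* = 0.508). *Gucy1b1*, a subunit of soluble guanylyl cyclase, had −0.10 ± 0.05 (SE, adjusted *P* = 0.637).

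Of 11 cAMP effectors, none was called and 2 had an unadjusted *P* under 0.05. *Prkar2a*, a regulatory subunit of protein kinase A, had a log2 fold change of −0.16 ± 0.05 (SE, adjusted *P* = 0.417) and *Pkia*, an inhibitor of that kinase, of 0.11 ± 0.04 (SE, adjusted *P* = 0.444). *Prkar2a* was called with the replicate block (edgeR, adjusted *P* = 0.0373), where 3.98% of all tested genes were called. Of 13 partners of PDEs, such as calmodulins, anchoring proteins and arrestins, none was called and none had an unadjusted *P* under 0.05. *Akap6* and *Akap9* had 0.14 ± 0.06 and 0.23 ± 0.13 (SE, adjusted *P* = 0.623 and 0.702). DESeq2 and limma voom called none in these 5 lists.

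Known target genes of cAMP and CREB were counted in the same way. This list was put together with results of these data known, and several of its genes are named in the study itself, so its count is a description and no independent evidence of a direction. Of 17 tested, 5 were lower with MCH and 0 higher in edgeR, where 0.207% of all tested genes were called lower and 0.0267% higher. The median log2 fold change of the 17 was −0.38. *Fos*, a subunit of the AP-1 transcription factor, fell from 62.7 ± 7.09 to 33.4 ± 2.36 CPM (SD, n = 4, log2 fold change −0.91 ± 0.08 SE, adjusted *P* = 0.00492). *Fosb*, of the same family, fell from 24.02 ± 1.53 to 13.8 ± 0.815 CPM (−0.80 ± 0.07 SE, adjusted *P* = 0.00492). *Sik1*, a kinase that holds back the CREB coactivators, fell from 38.9 ± 2.86 to 25.2 ± 1.23 CPM (−0.63 ± 0.06 SE, adjusted *P* = 0.00780).

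*Npas4*, an activity-induced transcription factor, fell from 38.0 ± 2.33 to 19.8 ± 3.12 CPM (−0.94 ± 0.11 SE, adjusted *P* = 0.0135) and the nuclear receptor gene *Nr4a2* from 56.8 ± 2.17 to 43.2 ± 2.82 CPM (−0.39 ± 0.05 SE, adjusted *P* = 0.0249). The 12 targets that were not called had log2 fold changes from −1.05 (*Nr4a1*) to 0.03 (*Ppargc1a*). Of these, *Nr4a1* held 93.9 ± 20.8 CPM with vehicle and 45.4 ± 9.10 CPM with MCH (SD), and its treatments did not overlap. DESeq2 called *Nr4a1* and *Per1* lower (adjusted *P* = 4.96e-07 and 1.92e-06), as did both blocks. The fits with DESeq2 or a block called more of the targets lower and also more of all genes. The count was 8 with DESeq2 (0.721% of all its tested genes called lower), 13 with the replicate block (2.25%), 12 with the side block (2.61%) and 11 with DESeq2 and the replicate block (1.23%). It was 2 without replicate 4 of vehicle, and 3 without replicate 1 or 2 of vehicle or replicate 4 of MCH.

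**Figure D5:**
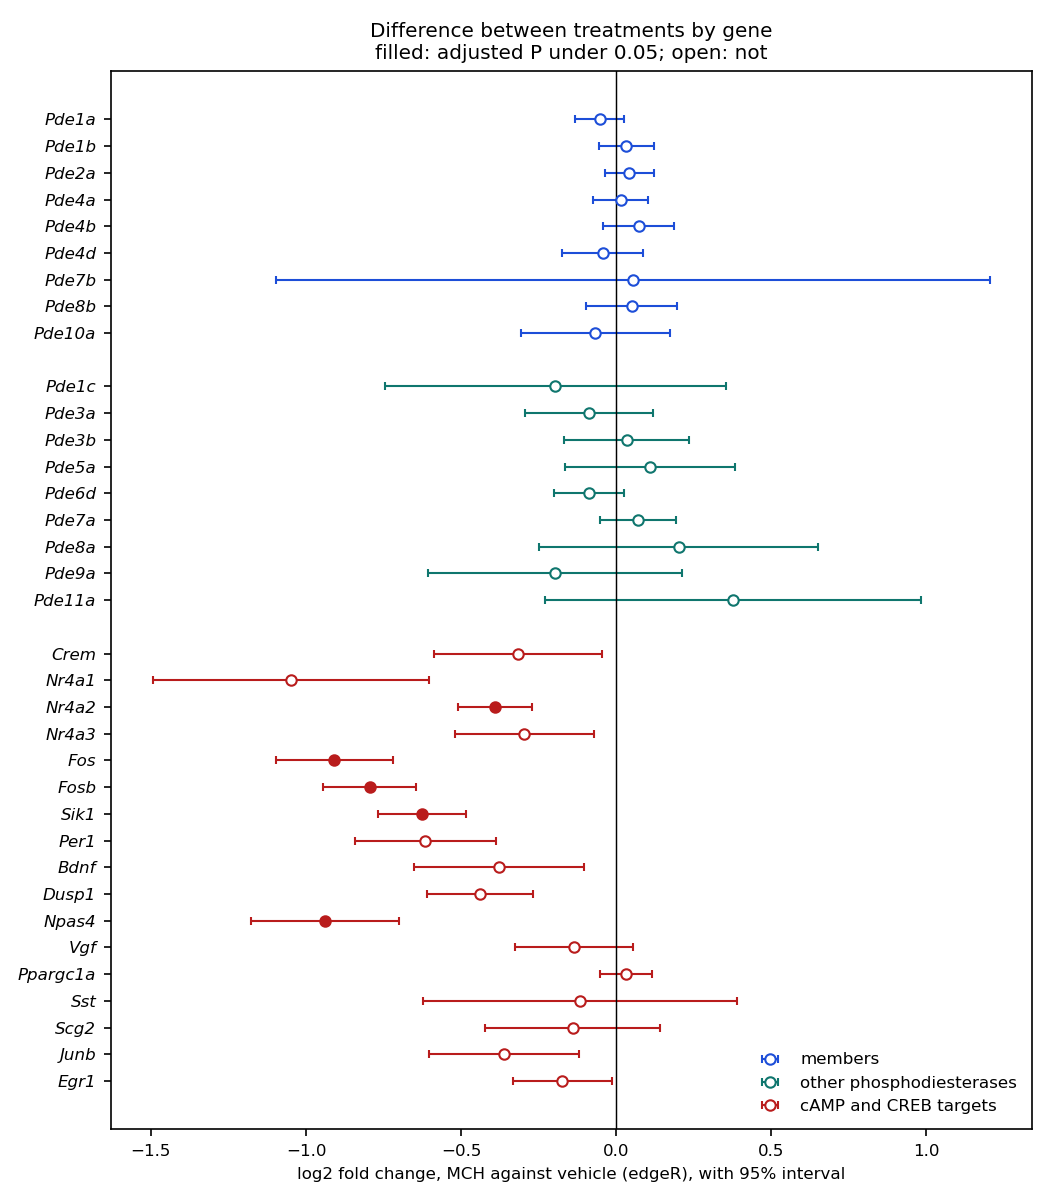
Log2 fold change of MCH against vehicle with its 95% interval (edgeR) for the 9 PDE genes (blue), 9 other PDE genes (green) and 17 target genes of cAMP and CREB (red). Filled points are DE. The 9 PDE genes lie between −0.07 and 0.07, and the 5 filled points between −0.94 and −0.39.

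Promoter sequences of the 9 genes were searched for the cAMP response element, since some PDE genes are known to carry it. RefSeq (GRCm38.p6) gave 28 promoters for the 9 genes, each from 250 bases before to 50 bases after a start. The full element TGACGTCA, which reads the same on both strands, occurred in 0 of the 28, beside 1.79% of all 32851 promoters of the same length. Its core TGACG, on either strand and including any full element, occurred in 5 of the 28 (17.9%), beside 20.8% of all. The 5 belong to *Pde1a*, *Pde2a*, *Pde4a*, *Pde4b* and *Pde8b*. Only that of *Pde8b* lies within 500 bases of the start of a transcript with at least 10 reads, *Pde8b-208*. The windows do not cover all starts in use here. The transcript with the most reads of its gene, averaged over wells, started within 500 bases of a window's start for 5 of the 9 genes. This was not so for *Pde2a* (*Gm45837-201*), *Pde4b* (*Pde4b-207*), *Pde4d* (*Pde4d-207*) or *Pde7b* (*Pde7b-201*). No match says only that these letters are not in the window.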

How the data were processed

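Bulk RNA-seq of 4 vehicle-treated and 4 MCH-treated wells was analysed. Treatments and replicate numbers came from the sample labels. Dose and cultures came from the paper's methods. The labels carry an Alzheimer's disease tag, but their genotype entry is wild type. The authors quantified reads with salmon in nf-core/rnaseq on GRCm38, and the submitters' processing notes also name R 4.0.3 and DESeq2 1.13.0. The deposited gene and transcript values are estimated counts, not scaled for depth or length. The deposited TPM are scaled by the authors' salmon run for effective length and depth, and were summed here over the transcripts of a gene. Identifiers were matched to GENCODE vM21 (GRCm38), which may not be the authors' annotation.

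Estimated counts were rounded and tested in R 4.3.3 with edgeR 4.0.16 (TMM, filterByExpr with count minimum 10 and total minimum 15, robust quasi-likelihood F test, no block, Benjamini–Hochberg over all tested rows, threshold 0.05). Standard errors were derived from the F statistic, and intervals use the t distribution of the fit. For forms, the rows of *Pde4b* and *Pde4d* were replaced by sums of long, short and other transcripts. Exact permutation tests (two-sided, scipy) covered single values. CPM use TMM library sizes. Alternatives were DESeq2 1.42.0, limma 3.58.1 voom, RLE factors, no filter, an offset for transcript length, blocks for replicate number and side, both rules for forms, and leaving out each well. Library totals set the precision, and values cover counting error and spread between these wells only. The scripts were checked on simulated counts.

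Replicate numbers were checked as pairs on deviations of log2 CPM from treatment means. Wells of the same number correlated at 0.445 to 0.545 (4 pairs), wells of another number on the same side at 0.475 to 0.521, and wells across sides at −0.548 to −0.438. Every pair of the same number was over 0.1, but pairs of another number on the same side were as close. These values therefore show the sides and no pairing by number within a side. The replicate block and the comparisons by replicate number use the numbers as labeled.

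The 9 genes and the lists were chosen with earlier results of these data known. Named were the 9 genes, transcripts of *Pde4b* and *Pde4d* with a mean of at least 10 reads, called genes of each list (otherwise the 2 with the smallest *P*), the 5 genes most correlated with the member of smallest *P* (mean CPM at least 1) and *Mchr1*. Other genes and transcripts were named after their values were seen. The rest of the paper's experiments are not analysed here.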

Additional observations from a re-analysis of the deposited data

Results flagged for a closer look

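Among 44 groups of 4 wells examined (CPM of the 9 genes and of 11 transcripts, and 2 shares, by treatment), 4 held a well far from the other 3 by Dixon's ratio, where chance gives about 1 in 20 groups. *Pde1b* stood at 55.5 CPM in replicate 1 with vehicle, against 52.2 to 52.5 CPM in the other 3 vehicle-treated wells. *Pde4b-208* stood at 1.66 CPM in replicate 1 with MCH, against 4.35 to 4.63 CPM. *Pde4b-206* stood at 1.16 CPM in replicate 4 with vehicle, against 0.834 to 0.856 CPM. *Pde4d-210* stood at 0.452 CPM in replicate 3 with MCH, against 1.01 to 1.12 CPM. The 3 transcripts hold a small part of the reads of their genes. The causes were not tested.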

How the results depend on the processing

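No alternative called any of the 9 genes, any long or short form, any of the 11 transcripts, the share of short forms or the difference of the MCH effect between the sides. The lowest adjusted *P* over all alternatives for the 9 genes was 0.248 (*Pde10a*, side block). The replicate block changed calls for cAMP effectors, for cAMP and CREB targets and for 3 marker genes (*Gad1*, *Penk* and *Neurod2*), and for none of the other lists. Among marker genes the side block called *Gad1*, *Penk* and *Drd1* lower, but not *Neurod2*. Among 17 targets of cAMP and CREB, DESeq2 called 8, the replicate block 13, the side block 12, DESeq2 with the replicate block 11, and fits without 1 well 2 to 6, while those fits called 0.721%, 2.25%, 2.61%, 1.23% and 0.0264 to 0.165% of all their tested genes lower. Among cAMP effectors the replicate block called 1 (*Prkar2a*) and the side block 2 (also *Pkia*). The causes were not tested. Signs changed, with no call on either side, for values near 0. For *Pde7b* the log2 fold change was −0.014 with the replicate block, −0.013 with the side block, −0.099 with limma voom, −0.036 with the length offset and −0.056 with DESeq2 and the replicate block. *Pde8b* had −0.030 with the length offset. *Pde4d-205* had −0.0020 with the replicate block and −0.00061 without a filter, and the other *Pde4d* transcripts summed had 0.0019 with the replicate block. Without 1 well, ranges were −0.27 to 0.31 for *Pde7b*, −0.0037 to 0.044 for *Pde4a*, −0.32 to 0.18 for *Pde4b-208*, −0.32 to 1.2996 for *Pde4b-203*, −0.019 to 0.049 for *Pde4d-207*, −0.043 to 0.059 for *Pde4d-205*, −0.0304 to 0.0300 for the short *Pde4d* forms, −0.305 to 0.176 for the other *Pde4d* transcripts summed and −0.15 to 1.57 percentage points for the *Pde4b* share. The differences of the MCH effect between the sides (interaction terms) ran from −0.084 to 0.0082 (*Pde2a*), −0.0126 to 0.065 (*Pde4b*), −0.143 to 0.0104 (*Pde4d*) and −0.053 to 0.079 (*Pde8b*). For *Pde7b* the SE was 0.51 without a block and 0.21 and 0.20 with the replicate and side block at the same depth. Counts were lowest for *Pde7b* (20 to 75 per well), and how far depth limits it and the transcripts with fewer than 100 reads was not tested.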
